A study of Homo sapiens with 6 samples.

Results

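Serine synthesis, the folate-bound one-carbon cycle and the methionine cycle were followed through 10 genes: PHGDH, PSAT1 and PSPH, which make serine; SHMT1, SHMT2, MTHFD2 and MTHFD1L, which move the carbon of serine onto and along folate; MAT2A and AHCY, which make S-adenosylmethionine and clear its product; and NNMT, which spends S-adenosylmethionine on nicotinamide. The genes were taken by name from a table of 48183 gene names, and the counts of identifiers with the same name were summed, which concerned SHMT1 alone among the 10. Bulk RNA-seq libraries of human embryonic stem cells were compared, 4 of naive and 2 of primed cells. Both states are pluripotent, and naive cells stand for the stage before the embryo implants and primed cells for the stage after it.

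All cells carried EOS-GFP, a reporter of distal Oct4 enhancer activity that the study used to mark naive cells, and came from 1 embryonic stem cell line, named H1 in the sample labels and H9 in the text of the study. The 2 AICAR libraries (AICAR 1 and AICAR 2) were from EOS cells converted with AICAR, an activator of AMP-activated kinase, in PXGL, a naive medium with PD0325901, XAV939, Go6983 and LIF. The CA-p38 library was from CA-p38 EOS cells, which also carry a constitutively active p38 kinase under a doxycycline-inducible promoter and were converted with doxycycline in the same medium. The VPA library was from EOS cells converted with valproic acid, a histone deacetylase inhibitor, with PD0325901 and LIF and without the other PXGL inhibitors. All naive cells were then passaged and sorted for the naive surface proteins CD75 and SUSD2. The study states that AICAR and CA-p38 cells were expanded in PXGL. For naive cells in general it names PXGL or FXGL, which has an FGFR1 inhibitor in place of PD0325901, and it does not name the medium in which VPA cells were passaged. The libraries were taken many passages after induction, and AICAR and doxycycline had been withdrawn before then. The study's methods keep naive cells on inactivated mouse embryonic fibroblasts, but its text has CA-p38 cells moved to PXGL without feeders. Feeder use is not given for each of these libraries. The primed libraries were 1 of unconverted EOS cells (primed EOS) and 1 of unconverted CA-p38 EOS cells (primed CA-p38 EOS). Both were grown in StemFit AK02N on Matrigel without feeders and not sorted this way. When the CA-p38 EOS line was made, however, it had been given doxycycline and sorted for mCherry, a fluorescent protein of its construct. State, medium, feeder cells where used, passage history and sorting therefore cannot be told apart. Libraries of a group differ in induction or in line, except the AICAR pair, which the study gives as successive passages without saying that they were separate inductions, so p-values measure the spread over these mixed libraries.

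Total counts ran from 46823699 to 54277064 per library, so that 3 counts correspond to 0.0553 to 0.0641 CPM, the count scaled to the size of the library. The 8 naive state markers (KLF17, DPPA5, SUSD2 and others) were all higher in naive libraries, with a summed level of 5066 to 5989 CPM against 8.50 to 12.3 CPM. SUSD2 is among the proteins on which only the naive cells were sorted. The 8 primed state markers (ZIC2, SFRP2, VIM and others) were all lower, with 49.7 to 60.9 CPM against 2856 to 3394 CPM. Of 8 fibroblast markers none was called higher and 4 were called lower in naive libraries, against 26% higher and 27% lower of all genes tested. Their summed level was 38.4 to 77.3 CPM against 197 to 217 CPM, and LUM was at 0 in VPA and AICAR 2, PDGFRB in VPA and POSTN in AICAR 1. The markers did not all lean 1 way: DCN was at 0.764 to 1.21 CPM in naive and 0.511 to 0.565 CPM in primed libraries, and COL3A1 and LUM were highest in CA-p38, at 16.6 and 1.17 CPM, and none of these 3 was called. Feeders, where used, were mouse cells, and reads were mapped to human sequences, so these levels are not a measure of feeder cells. Whether these markers bear on the genes below was not tested. The chi-square statistic between the AICAR libraries was 21.1 per gene, within the range of 19.8 to 35.9 over all pairs of naive libraries, so they were not 1 library deposited under 2 names and were kept as 2 samples. That does not make them independent inductions.

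Serine is made from the glycolytic intermediate 3-phosphoglycerate in 3 steps. In mitochondria and in the cytosol, serine is split into glycine and a one-carbon unit bound to tetrahydrofolate, which is oxidised or reduced and used to build purines, thymidylate and methionine. Methionine is activated to S-adenosylmethionine, the methyl donor of histone, DNA and small-molecule methyltransferases, and the spent donor is hydrolysed by AHCY so that it does not inhibit them. NNMT, which methylates nicotinamide, is known from work on human pluripotent cells as a drain on S-adenosylmethionine in the naive state.

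A pair of short DNA patterns were searched in the RefSeq promoter windows of these genes (GRCh38.p14, 300 bases around each start site, both strands), because several of the enzymes are known targets of the transcription factor ATF4, whose composite site with C/EBP is written TGATGNAA, and because the CCAAT box (ATTGG on the other strand) is common in promoters of housekeeping enzymes. Windows were found for 7 of the 10 genes, and NNMT, PSPH and SHMT2 had none in the table. TGATGNAA was in the windows of MTHFD1L only, against 4.46% of all 27305 genes with a window. Depending on the transcript, the match lay 129 or 90 bases before the start or 24 bases after it. The CCAAT box was in 6 of the 7 genes, all but AHCY, against 39.7% of all genes. The stretches of 30 bases below show the ATF4-type match and the CCAAT matches of the genes with the greatest rise and the greatest fall, MTHFD2 and MAT2A, and of SHMT1. They are written 5′ to 3′ on the strand of the gene with the match in capitals.
MTHFD1L, TGATGNAA, chr6:150866346-150866375, plus strand: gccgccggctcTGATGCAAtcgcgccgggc
MTHFD2, distal, chr2:74198419-74198448, plus strand: gctcttctggctCCAATcaaaagcagggct
MTHFD2, proximal, chr2:74198529-74198558, plus strand: atgcggcagggaCCAATgggtggcggaggg
MAT2A, chr2:85539068-85539097, plus strand: cgcaagtggtgcATTGGcgcgcggcgccga
SHMT1, distal, chr17:18363609-18363638, minus strand: gctgcgccgcagCCAATagcgcgggtgcgt
SHMT1, proximal, chr17:18363558-18363587, minus strand: ctgcgctctctgATTGGgcgcctccggggg
The same box therefore lies in front of a gene that was higher and of a gene that was lower in naive libraries. A match of letters does not show binding by a factor, and a missing match in these windows does not show that a gene has no site elsewhere.

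Naive and primed libraries were then compared for each gene with edgeR's quasi-likelihood test, adjusted by Benjamini-Hochberg over all 26497 genes tested. Of the 10 genes, 9 passed the filter on low counts, and NNMT did not. MTHFD2, SHMT1 and PSPH were higher in naive libraries, MAT2A, AHCY and MTHFD1L were lower, and PHGDH, PSAT1 and SHMT2 were not called. Among all genes tested, 26% were called higher and 27% lower, 53.1% in all, so that 6 called of 9 is near the share of all genes. Naive and primed levels did not overlap for 8 of the 9 genes, against 64.9% of all genes, and these were 4 higher (32.9% of all genes) and 4 lower in naive libraries (32.1% of all genes). MTHFD2 was the 1 gene that was both called and changed at least 2-fold, which held for 35.3% of all genes. The median log2 fold change of the 9 genes was −0.14, and that of all genes tested was 0.11. Levels are from bulk RNA, in which fewer cells of a type and less RNA per cell cannot be told apart.

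**Figure D1:**
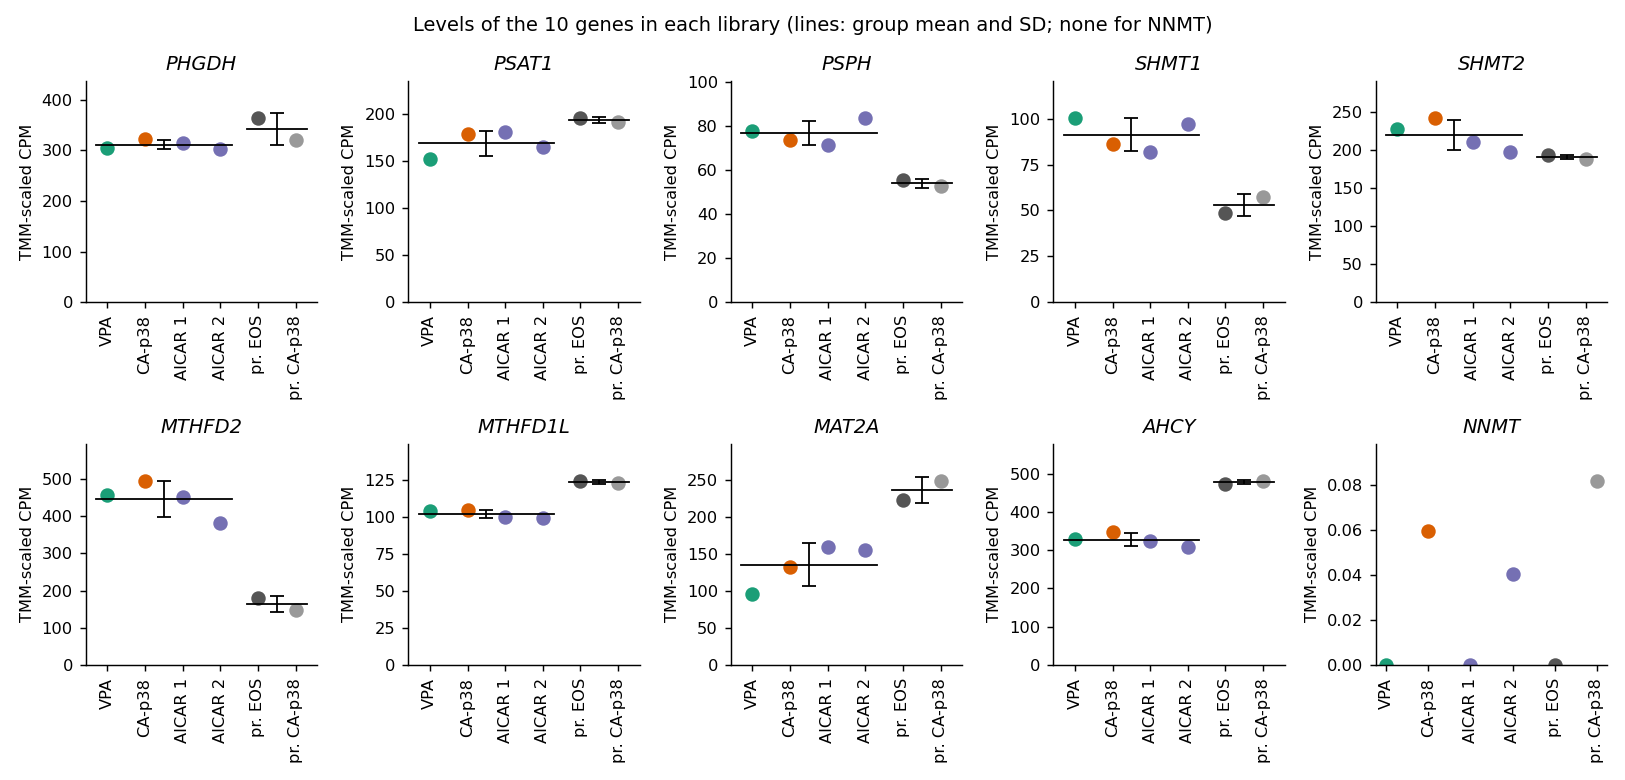
TMM-scaled CPM (vertical axes, each from 0) of the 10 genes in the 4 naive libraries (VPA, CA-p38, AICAR 1, AICAR 2) and the 2 primed libraries (pr. EOS, pr. CA-p38), 1 point a library, with horizontal lines at the group means and bars of ± 1 SD, which are not drawn for NNMT. MTHFD2 stands at 381 to 496 CPM in naive and 149 to 180 CPM in primed libraries, MAT2A and AHCY are higher in primed libraries, and NNMT stays under 0.1 CPM.

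NNMT had next to no reads in either state. It was listed with 0 counts in VPA, 3 in CA-p38, 0 in AICAR 1, 2 in AICAR 2, 0 in primed EOS and 4 counts in its CA-p38 counterpart, primed CA-p38 EOS. In naive libraries that was 5 of 202472491 counts, and in primed libraries 4 of 103069334. The exact 95% Clopper-Pearson intervals, which cover counting error only, were 0.00802 to 0.0576 CPM in naive and 0.0106 to 0.0994 CPM in primed libraries. The intervals overlap, and a difference between states was not detectable at this depth. Tested without the filter on low counts, NNMT had an adjusted p of 0.815 in edgeR's quasi-likelihood test, and no fold change is given. The NNMT gene lies on the plus strand of chromosome 11 (114257787 to 114313536 in GRCh38) and its canonical transcript has 3 exons and 2012 bases. In the same libraries AOX1, the oxidase of the product of NNMT and chosen here after its values were seen, was at 0 to 0.534 CPM in naive and at 10.4 to 10.9 CPM in primed libraries.

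The first steps of serine synthesis changed little, and the last was higher in naive libraries. PHGDH, the dehydrogenase that commits 3-phosphoglycerate to serine, was at 305, 323, 314 and 304 CPM in VPA, CA-p38, AICAR 1 and AICAR 2. Primed EOS had 364 CPM and primed CA-p38 EOS 321 CPM. The 4 naive libraries lay close together, and CA-p38 overlapped the primed range. Its log2 fold change was −0.14 (SE 0.09, 95% interval −0.34 to 0.07, adjusted p = 0.238 by edgeR's quasi-likelihood test).

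PSAT1, the aminotransferase of the next step, was at 152, 178, 180 and 164 CPM in the naive libraries in the same order, and at 195 and 191 CPM in the primed libraries (EOS, then CA-p38 EOS). All 4 naive values lay under both primed values, yet the difference did not pass the test, with a log2 fold change of −0.20 (SE 0.10, 95% interval −0.42 to 0.03, edgeR adjusted p = 0.125). PSPH, the phosphatase that releases free serine, was at 78.0, 73.9, 71.5 and 83.8 CPM in naive and at 55.5 and 52.7 CPM in primed libraries. Every naive library lay above both primed libraries, and PSPH rose by a log2 fold change of 0.51 (SE 0.11, edgeR adjusted p = 0.00206), or 1.42-fold (95% interval 1.20 to 1.68). The ratio of PSPH to PHGDH, each per kilobase of its canonical transcript, was 0.234 ± 0.0221 (SD, n = 4) in naive and 0.150 ± 0.00791 (SD, n = 2) in primed libraries.

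Serine hydroxymethyltransferases split serine into glycine and a one-carbon unit, SHMT1 in the cytosol and SHMT2 in mitochondria. SHMT1 was at 100, 86.0, 81.8 and 97.3 CPM in VPA, CA-p38, AICAR 1 and AICAR 2, and at 48.8 and 57.4 CPM in the primed libraries. The groups did not overlap, and SHMT1 rose 1.72-fold (95% interval 1.42 to 2.08), with a log2 fold change of 0.78 (SE 0.13, edgeR adjusted p = 0.000183). SHMT1 has a second identifier outside the annotated chromosomes, and with the identifiers tested apart the one on chromosome 17 gave 0.80. Its exons share 197 bases with SMCR8 on the opposite strand, whose counts reached at most 41.4% of those of SHMT1, and use of read strand in the counting is not given in the sources used here.

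SHMT2 was at 227, 242, 211 and 198 CPM in naive and at 193 and 189 CPM in primed libraries. The naive values were all above the primed values, by a small margin for AICAR 2, and the difference was not called, with a log2 fold change of 0.20 (SE 0.10, 95% interval −0.03 to 0.43, edgeR adjusted p = 0.123). Scaled by library totals in place of TMM it passed the threshold (0.30, edgeR adjusted p = 0.0206). Per kilobase, SHMT2 exceeded SHMT1 in every library, 2.84-fold ± 0.403 (SD, n = 4) in naive and 4.24-fold ± 0.546 (SD, n = 2) in primed libraries.

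MTHFD2, the mitochondrial dehydrogenase and cyclohydrolase that oxidises the one-carbon unit, had the largest log2 fold change of the 9 genes tested. It was at 456 CPM in VPA, 496 CPM in CA-p38, 451 CPM in AICAR 1 and 381 CPM in AICAR 2, against 180 and 149 CPM in the primed EOS and CA-p38 EOS libraries. The lowest naive library was thus more than double the highest primed one. MTHFD2 rose 2.71-fold (95% interval 2.24 to 3.29), a log2 fold change of 1.44 (SE 0.13, edgeR adjusted p = 8.23e-07). Of all genes tested, 30.01% had a larger absolute log2 fold change. MTHFD2 shares 1324 exonic bases with SLC4A5 on the opposite strand, which had at most 3.15% as many counts, and its 7 pseudogenes together had at most 0.469% as many.

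MTHFD1L, the mitochondrial synthetase that releases the one-carbon unit as formate for use in the cytosol, moved the other way. It was at 104, 105, 99.9 and 99.2 CPM in naive and at 125 and 123 CPM in primed libraries. Libraries of each state were close together and the states did not overlap. MTHFD1L fell by 0.28 on the log2 scale (SE 0.09, edgeR adjusted p = 0.0261), or 1.21-fold (95% interval 1.05 to 1.40). That call was lost without AICAR 1 (adjusted p = 0.0543), AICAR 2 (adjusted p = 0.0512), primed EOS (adjusted p = 0.0947) or primed CA-p38 EOS (adjusted p = 0.0933), and with library totals in place of TMM (−0.18, adjusted p = 0.115), all by edgeR's quasi-likelihood test. Per kilobase, MTHFD2 over MTHFD1L was 3.42 ± 0.295 (SD, n = 4) in naive and 1.04 ± 0.130 (SD, n = 2) in primed libraries.

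MAT2A and AHCY, which make S-adenosylmethionine and clear its product, were lower in naive libraries. MAT2A, which makes S-adenosylmethionine from methionine and ATP outside the liver, was at 95.5 CPM in VPA, 132 CPM in CA-p38, 159 CPM in AICAR 1 and 156 CPM in AICAR 2, against 224 and 250 CPM in the primed EOS and CA-p38 EOS libraries. VPA had the lowest level and the 2 AICAR libraries the highest of the naive libraries, and all stayed under both primed libraries. MAT2A fell by 0.80 on the log2 scale (SE 0.17, edgeR adjusted p = 0.00118), or 1.75-fold (95% interval 1.36 to 2.24). Its coefficient of variation among naive libraries, 21.6%, was the highest of the 9 tested genes, the others being between 2.92% and 10.7%. MAT2A shares 562 exonic bases with GGCX on the opposite strand, whose counts reached at most 24.7% of those of MAT2A.

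AHCY, which hydrolyses S-adenosylhomocysteine, was at 329, 349, 323 and 308 CPM in VPA, CA-p38, AICAR 1 and AICAR 2, and at 474 and 482 CPM in the primed libraries. The naive libraries were alike and well under the primed ones. AHCY fell by 0.55 on the log2 scale (SE 0.09, edgeR adjusted p = 0.000193), or 1.46-fold (95% interval 1.28 to 1.67).

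**Figure D2:**
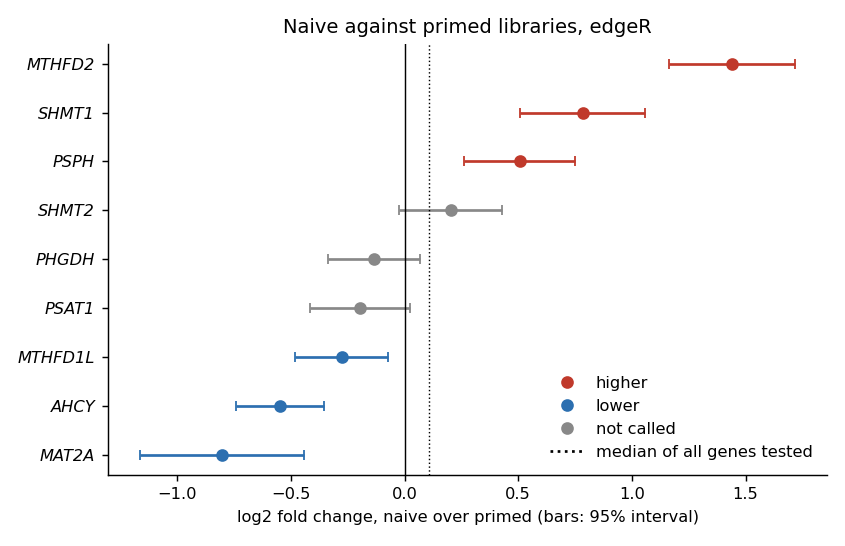
Log2 fold change of naive over primed libraries (horizontal axis) for the 9 genes tested, with bars for the 95% interval, a solid line at 0 and a dotted line at the median of all genes tested, 0.11. MTHFD2 (1.44), SHMT1 (0.78) and PSPH (0.51) lie to the right, MAT2A (−0.80), AHCY (−0.55) and MTHFD1L (−0.28) to the left, and the intervals of SHMT2, PHGDH and PSAT1 include 0.

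Levels were compared between genes as CPM per kilobase of the canonical transcript. In naive libraries the order was PHGDH (167 ± 4.88, SD, n = 4), AHCY (152 ± 7.88), SHMT2 (102 ± 8.95), MTHFD2 (101 ± 10.8), PSAT1 (76.5 ± 6.07), MAT2A (48.2 ± 10.4), PSPH (38.9 ± 2.73), SHMT1 (36.2 ± 3.52), MTHFD1L (29.6 ± 0.865) and NNMT. Within that order SHMT2 and MTHFD2 overlapped between libraries, and so did MAT2A, PSPH and SHMT1 with each other. In primed libraries AHCY led (222 ± 2.66, SD, n = 2), before PHGDH (184 ± 16.5), SHMT2 (88.4 ± 1.33), PSAT1 (87.6 ± 1.39) and MAT2A (84.0 ± 6.43). MTHFD2 (37.4 ± 5.05), MTHFD1L (35.9 ± 0.379), PSPH (27.4 ± 1.02) and SHMT1 (21.0 ± 2.39) followed. SHMT2, PSAT1 and MAT2A overlapped there, as did MTHFD2 and MTHFD1L. MTHFD2 thus went from sixth in primed to level with SHMT2 in naive libraries, its ratio to SHMT2 being 0.422 ± 0.0508 (SD, n = 2) in primed and 0.996 ± 0.0434 (SD, n = 4) in naive libraries. The sum of the 10 genes was 1791 to 1985 CPM in naive and 1813 to 1859 CPM in primed libraries.

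Each naive library was next set against the primed library of the line from which it was induced, primed CA-p38 EOS for CA-p38 and primed EOS for the others. With 1 primed library a line, these ratios have no test, and their 95% intervals, from binomial counts, cover counting error only. MTHFD2 was 2.53-fold (2.47 to 2.59) in VPA, 3.33-fold (3.25 to 3.42) in CA-p38, 2.50-fold (2.44 to 2.57) in AICAR 1 and 2.12-fold (2.06 to 2.17) in AICAR 2. The AICAR libraries differed from each other by more than AICAR 1 differed from VPA. SHMT1 was 2.06-fold in VPA, 1.50-fold in CA-p38, 1.68-fold in AICAR 1 and 1.99-fold in AICAR 2, so that the libraries of 1 treatment again spanned much of the range.

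MAT2A had ratios of 0.426 (0.412 to 0.441) in VPA, 0.529 (0.514 to 0.545) in CA-p38, 0.710 (0.690 to 0.730) in AICAR 1 and 0.697 (0.677 to 0.717) in AICAR 2. Here the AICAR libraries were alike and the other inductions lay lower, but with 1 library for VPA and 1 for CA-p38 the difference was not tested. AHCY ran from 0.650 to 0.723, MTHFD1L from 0.796 to 0.854 and PSPH from 1.29 to 1.51 over the 4 libraries. PHGDH was lower in the 3 EOS inductions (0.834 to 0.863) and at 1.01 in CA-p38 (0.986 to 1.03), where it was 1.10 with library totals and 0.968 with median-ratio factors in place of TMM. PSAT1 was between 0.776 and 0.932 (1.02 in CA-p38 with library totals in place of TMM), and SHMT2 between 1.03 and 1.28. These ratios reuse the libraries of the comparison of states, and 3 of the 4 share primed EOS.

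**Figure D3:**
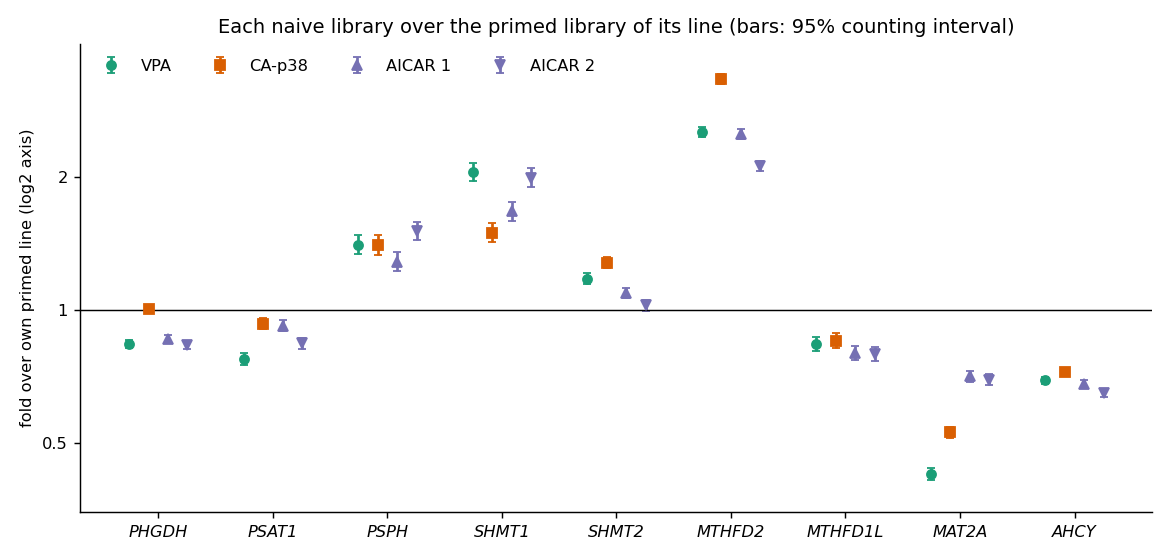
Ratio of each naive library to the primed library of its line (vertical log2 axis) for 9 genes, with symbols for the 4 naive libraries and bars for the 95% counting interval. MTHFD2 is above 2 in all 4 libraries, MAT2A runs from 0.426 in VPA to 0.710 in AICAR 1, and PHGDH is under 1 in the EOS inductions and at 1.01 in CA-p38.

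Whether the difference between states depended on the line was tested as an interaction of state and line over all 6 libraries, in which 3 of the 4 combinations have 1 library that is assumed to vary like the naive EOS libraries. The CA-p38 EOS line had only the CA-p38 induction and the EOS line only VPA and AICAR, so line and induction cannot be told apart in it. None of the 9 genes was called, all with an adjusted p of 0.9999 in edgeR's quasi-likelihood test, and 1 of all genes tested was (0.00377%), with 853 genes at an unadjusted p under 0.05. MTHFD2 came nearest, with a difference of 0.48 (SE 0.22, edgeR unadjusted p = 0.0571) on the log2 scale, CA-p38 in its line having the larger fold. The difference was 0.26 (SE 0.19) for PHGDH and −0.21 for MAT2A, which had the largest error (SE 0.39), and these data do not show that the lines act alike.

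Around the 10 genes, 8 lists of related genes were counted in the same fit, in which 26% of all genes were higher and 27% lower, with a median of 0.11. Of 15 genes of serine and glycine transport and breakdown, 5 were higher, 5 lower and 5 not called, for a median of −0.19 (log2), shares near those of all genes. The count of higher genes dropped to 3 without AICAR 2, and both counts dropped to 3 without primed CA-p38 EOS. The glycine cleavage system, which releases the carbon of glycine in mitochondria, had its decarboxylase GLDC higher, at 445 ± 26.9 CPM (SD, n = 4) against 150 ± 2.46 CPM (SD, n = 2), with a log2 fold change of 1.57 (SE 0.10, edgeR adjusted p = 4.18e-08). Its carrier protein GCSH was higher too (1.17, SE 0.16, edgeR adjusted p = 4.14e-05). SFXN1, the mitochondrial serine carrier, fell from 84.7 ± 8.46 CPM in primed to 21.4 ± 2.18 CPM in naive libraries, by 1.99 on the log2 scale (SE 0.13, edgeR adjusted p = 3.78e-08), and its relative SFXN2 fell by 0.91 (SE 0.14). The naming rule takes genes from both ends of a list. The other glycine cleavage genes, AMT (−0.29, SE 0.13) and DLD (0.04, SE 0.10), were not called, and the carrier SFXN3 was called higher (1.67, SE 0.54), these 3 being named after their values were seen.

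Of 18 further genes of the folate cycle, 4 were higher (2 without primed EOS), 8 lower and 6 not called, with a median of −0.31. ALDH1L2, which oxidises 10-formyltetrahydrofolate in mitochondria, was at 68.7 ± 15.9 CPM (SD, n = 4) in naive cells against 4.76 ± 0.261 CPM (SD, n = 2) in primed cells, or 3.85 on the log2 scale (SE 0.22, edgeR adjusted p = 1.38e-08). The folate receptor FOLR1 rose by 2.34 (SE 0.33, edgeR adjusted p = 5.03e-05). MTHFD2L, the closest relative of MTHFD2, fell by 3.68 (SE 0.40, edgeR adjusted p = 5.73e-06), from 14.5 ± 3.60 to 1.14 ± 0.658 CPM, opposite to MTHFD2. MTHFD1, the cytosolic enzyme of the same reactions as MTHFD2 and MTHFD1L and chosen after its values were seen, was at 330 to 349 CPM in naive and 324 to 348 CPM in primed cells, with a log2 fold change of 0.01 (SE 0.09).

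Of 15 further genes of the methionine cycle and methionine uptake, 7 were higher, 5 lower and 3 not called, with a median of 0.07, and the lower genes numbered 2 without primed EOS and 3 without primed CA-p38 EOS. BHMT, which remethylates homocysteine with betaine, was at 15.1 ± 1.28 CPM (SD, n = 4) in naive but only 0.335 ± 0.0977 CPM (SD, n = 2) in primed cells, or 5.48 on the log2 scale (SE 0.28, edgeR adjusted p = 4.6e-09). CTH, which makes cysteine from cystathionine, rose by 2.18 (SE 0.16, edgeR adjusted p = 1.37e-07). ADK, which removes the adenosine that AHCY releases, fell by 0.67 (SE 0.18), and SLC25A26, the mitochondrial carrier of S-adenosylmethionine, fell by 0.57 (SE 0.14). AHCYL2 (1.24, SE 0.15) and AHCYL1 (0.33, SE 0.13), relatives of AHCY named after their values were seen, were called higher, opposite to AHCY. AHCYL1 was close to the threshold (edgeR adjusted p = 0.0489) and its groups overlapped, with AICAR 2 at 142 CPM and primed EOS at 143 CPM.

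Methionine salvage and polyamine synthesis, which also use S-adenosylmethionine, had 3 of 10 genes higher, 5 lower and 2 not called (median −0.21). SMS, spermine synthase, was at 49.7 ± 6.11 CPM (SD, n = 4) in naive cells against 970 ± 81.0 CPM (SD, n = 2) in primed cells, and fell by 4.29 on the log2 scale (SE 0.12, edgeR adjusted p = 2.79e-11). SRM, spermidine synthase, rose by 0.75 (SE 0.11), SAT1, the acetylase that opens polyamine breakdown, rose by 0.91 (SE 0.16), and MTAP, which recovers methylthioadenosine, fell by 1.57 (SE 0.14).

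Of 11 other methyltransferases of small molecules, 10 were tested, 5 were higher, 3 lower and 2 not called (median 0.19). INMT, which methylates indolamines and is a relative of NNMT, was at 6.86 ± 0.870 CPM (SD, n = 4) in naive cells against 1.48 ± 0.246 CPM (SD, n = 2) in primed cells (log2 fold change 2.21, SE 0.27, edgeR adjusted p = 1.56e-05). GAMT, which makes creatine, rose by 0.80 (SE 0.15). HNMT, which methylates histamine, fell by 2.58 (SE 0.23). In the nicotinamide and NAD list, 5 of 16 genes were higher (3 without primed EOS), 5 lower and 6 not called (median −0.01). NADK, which makes NADP in the cytosol, rose by 1.30 (SE 0.11), and NAPRT, which uses nicotinic acid, rose by 1.19 (SE 0.15), while NMNAT2 fell by 1.51 (SE 0.24) and the mitochondrial NADK2 fell by 0.97 (SE 0.16).

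The lists named for purine synthesis and for the ATF4 response had most of their calls on 1 side. All lists were chosen with earlier results of these data known, so these shares describe the lists and are not a test. Purine synthesis takes up one-carbon units as 10-formyltetrahydrofolate in only some of its steps, and the list also holds the salvage genes HPRT1 and APRT. Among all genes 26% were higher and 27% lower, with a median of 0.11. Of the 15 purine genes none was higher, 12 were lower and 3 were not called, with a median of −0.64. Their summed level was 1726 to 1899 CPM in naive and 2874 to 2905 CPM in primed libraries. IMPDH1, of the guanylate branch, fell by 2.55 on the log2 scale (SE 0.13, edgeR adjusted p = 3.56e-09), from 64.8 ± 1.67 to 11.1 ± 0.943 CPM. GMPS, which makes guanylate itself, fell by 1.29 (SE 0.11, edgeR adjusted p = 5.67e-07). IMPDH2, a relative of IMPDH1 named after its values were seen, was not called (−0.06, SE 0.10, edgeR adjusted p = 0.609). Mean IMPDH2 levels were 298 CPM (primed) and 285 CPM (naive), well above those of IMPDH1, and its groups overlapped. ATIC, which uses the phosphorylated form of AICAR as a substrate and was chosen after its values were seen, was at 161, 158, 140 and 151 CPM in VPA, CA-p38, AICAR 1 and AICAR 2, and at 192 and 217 CPM in the primed libraries. It was lower in every naive library, with a log2 fold change of −0.43 (SE 0.10, edgeR adjusted p = 0.00316). A link to AICAR was not tested.

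ATF4 is a transcription factor of amino acid shortage, and serine synthesis genes and MTHFD2 are among its known targets. Of 24 further genes of its response, ATF4 itself among them, 23 were tested, 18 were higher, 3 lower and 2 not called, against 26% higher and 27% lower of all genes. Their median was 0.70, and FGF21 was at or under the floor of 3 counts in every library. The summed level was 2976 to 3167 CPM in naive and 1504 to 1661 CPM in primed libraries. NUPR1, a stress-induced chromatin protein, was at 86.0 ± 7.22 CPM (SD, n = 4) against 5.75 ± 1.20 CPM (SD, n = 2), a log2 fold change of 3.90 (SE 0.17, edgeR adjusted p = 1.13e-09). DDIT3, the stress factor CHOP, rose by 3.77 (SE 0.20, edgeR adjusted p = 7.68e-09). SLC7A3, a carrier of cationic amino acids, fell by 5.15 (SE 0.22, edgeR adjusted p = 1.02e-09), and VLDLR, a lipoprotein receptor, fell by 2.40 (SE 0.22, edgeR adjusted p = 9.31e-07). ATF4 itself, chosen after its values were seen, had a log2 fold change of 0.33 (SE 0.09, edgeR adjusted p = 0.0082). Among the serine synthesis genes only PSPH was called higher beside these, while PHGDH and PSAT1 were not called.

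**Figure D4:**
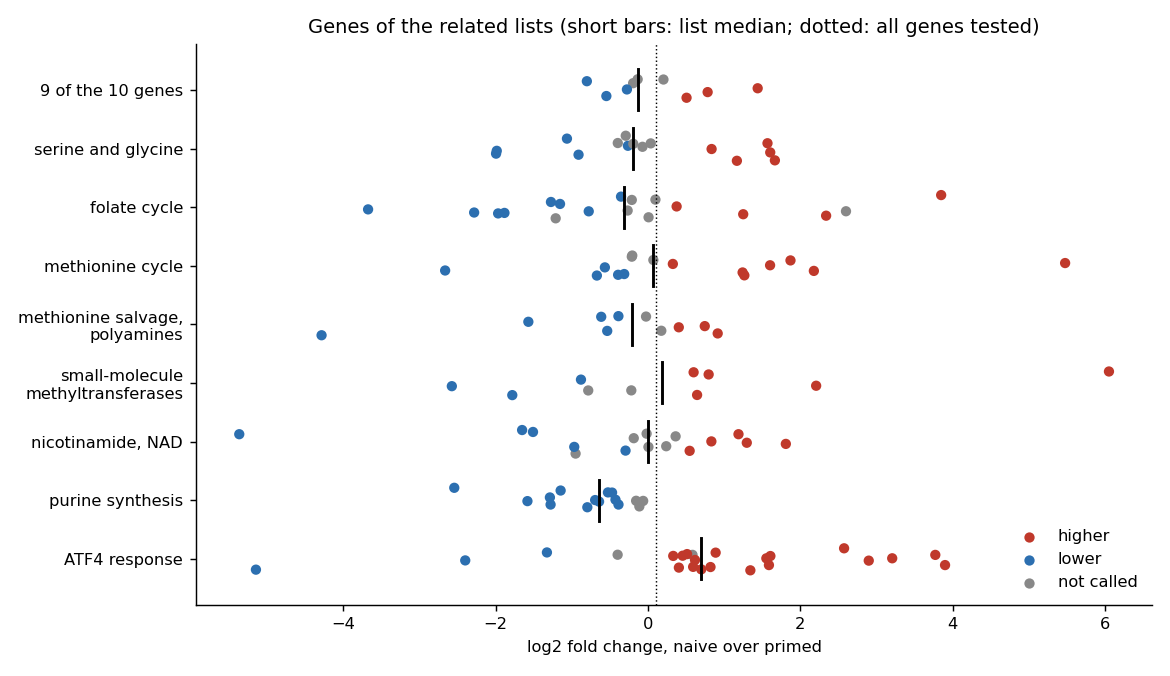
Log2 fold change of naive over primed libraries (horizontal axis) for every tested gene of the 9 lists (1 point a gene, coloured by call), with short bars at the list medians and a dotted line at the median of all genes tested, 0.11. The purine synthesis genes lie left of 0 (median −0.64), the ATF4 response genes lie mostly to the right (median 0.70), and the other lists spread to both sides.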

How the data were processed

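The deposited table holds raw counts per Ensembl gene identifier, made by the authors, according to their methods, by mapping trimmed reads with Bowtie2 to the cDNA and noncoding RNA of Ensembl GRCh38 release 100 and discarding those of mapping quality under 1. The submitters' processing notes also name cutadapt 1.15, Trim Galore 0.4.4, RSEM and limma. Libraries were poly(A)-enriched and made with a stranded kit. Of the table's columns, 23 that match no sample here were not used, and 26 spike-in features with at most 1 count were left out. Identifiers sharing a name were summed (61196 identifiers, 48183 names).

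The comparison of 4 naive with 2 primed libraries used edgeR 4.0.16 (R 4.3.3; TMM scaling, filterByExpr by state, glmQLFit and glmQLFTest, Benjamini-Hochberg over 26497 genes, threshold 0.05). The standard error is the log2 fold change divided by the square root of its F value, and intervals use the t distribution with the fit's degrees of freedom. CPM values are TMM-scaled (factors 0.936 to 1.06), except the NNMT intervals and floors, which use library totals. Per-kilobase levels use canonical transcripts of GENCODE release 44. The tests were checked on simulated data. Alternatives covered scaling, DESeq2 1.42.0, limma-voom 3.58.1, filters, a block for parental line, summing of the AICAR libraries, identifiers apart and each library left out, and a fit within the EOS line was added after seeing the data. Python 3.11.15 with scipy 1.17.1 was used for the rest.

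The 10 genes and all lists were chosen with earlier results of these data known. From each list, the rule named up to 2 genes with the highest and 2 with the lowest log2 fold change among called genes that averaged 5 CPM or more and whose states did not overlap. Genes that met the rule but are withheld are not reported here. The rule also asked for the 5 genes most like NNMT, which are not named because NNMT was near the counting floor.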

Additional observations from a re-analysis of the deposited data

How the results depend on the processing

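The calls of MTHFD2, SHMT1, PSPH, MAT2A and AHCY kept their direction and their side of the threshold under all 16 alternatives of the comparison of states, the parental line as a block among them. The log2 fold change of MTHFD2 ran from 1.24 to 1.57, of SHMT1 from 0.66 to 0.92, of PSPH from 0.46 to 0.61, of MAT2A from −0.90 to −0.68 and of AHCY from −0.60 to −0.45. PHGDH and PSAT1 stayed uncalled under all 16. With library totals SHMT2 passed the threshold (0.30, edgeR adjusted p = 0.0206) and MTHFD1L did not (−0.18, adjusted p = 0.115), and MTHFD1L also missed it within the EOS line (−0.32, edgeR adjusted p = 0.0878, added after seeing the data). With 1 library left out MTHFD1L ran from −0.31 to −0.26. The cause was not tested. No paired analysis by replicate number was possible because the labels number the AICAR libraries alone. The block by parental line left MTHFD1L at −0.27 (edgeR adjusted p = 0.0409).

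Members called higher numbered 3 to 4 and lower 2 to 3, and all genes called higher 4898 to 7674 and lower 5565 to 7911. Purine synthesis genes called lower numbered 9 to 12 and ATF4 response genes called higher 15 to 18, the lowest being without primed CA-p38 EOS (9 and 15). Over all genes the median change was 0.06 (log2) with median-ratio factors and 0.21 with library totals. Of 108 alternative ratios to the own primed line, 50 stayed within the counting interval, 57 moved beyond it and 1 changed side, PSAT1 in CA-p38 with library totals (1.02 against 0.932). PHGDH in CA-p38, whose interval included 1 from the start, lay on both sides of 1 (0.944 to 1.10). Within the EOS line the counts of 5 for serine and glycine (higher and lower), the methionine cycle (lower), salvage and polyamines (lower), methyltransferases (higher) and NAD (higher) were each 3, and lower NAD genes numbered 3 with at least 10 counts in every library. Counts of 0 to 4 limit what can be said of NNMT.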

Other observations

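The genes whose profile over the 6 libraries was nearest to that of MTHFD2, a comparison added after its values were seen, were BTG2, an antiproliferative gene, with a root mean square difference of 0.0554 in centred log2 CPM, RELL1 (0.0624), TMEM161B (0.0685), CMTM4 (0.0688) and NPEPPSP1 (0.0783). They were the closest of 12603 genes averaging 5 CPM or more. The points share their libraries, and most of the likeness is the difference between states.

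Of 5 genes of shared pluripotency, NANOG was at 223 to 242 CPM in naive and 84.7 to 97.9 CPM in primed libraries, SOX2, SALL4 and LIN28A were called lower, and POU5F1 was not called (−0.12, SE 0.08). Of 8 differentiation markers, 3 were called higher (TBXT, GATA4 and CDX2), 2 lower (SOX17 and FOXA2) and 3 were not called, with a summed level of 21.5 to 26.3 CPM in naive and 10.3 to 35.2 CPM in primed libraries. Of all genes tested, 26% were called higher and 27% lower.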
